A study of Arabidopsis thaliana with 36 samples.

Results

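WRKY75 (AT5G13080), WRKY6 (AT1G62300), WRKY42 (AT4G04450), ZAT6 (AT5G04340) and MYB62 (AT1G68320) are 5 Arabidopsis thaliana transcription factor genes known from work on phosphate (Pi) starvation, chosen by locus from a table of 27444 genes. Their messenger RNA was measured by RNA-seq in 36 libraries, 3 for each of 12 groups of hydroponically grown plants. The plants were Col-0, the wild type (WT), the T-DNA knockout ppsr1 (KO), or 1 representative line with AtPPSR1 overexpression (OE). All plants had grown for weeks with 200 µM Pi before they received either 200 µM or 0 µM Pi for 24 h, and mature rosette leaves and roots were taken separately. No promoter of the overexpression construct and no plant age beyond the growth period is given in the sources used here, the overexpression data come from a single line, and the PPSR1 transcript was not analysed here, so neither line was checked at its altered gene. The series title names nitrogen, phosphorus and potassium deficiency, and in these libraries Pi alone was varied.

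In Arabidopsis the response to Pi shortage is led by MYB-type factors of the PHR group, which bind the P1BS motif and are held back by SPX proteins while Pi is plentiful. The 5 genes studied here act beside that core. WRKY75 is described as induced by prolonged Pi starvation and as a positive regulator of starvation genes, and it also promotes leaf senescence. WRKY6 and WRKY42, close relatives of group IIb, repress PHO1, which loads Pi into the xylem, and WRKY42 also activates the Pi transporter gene PHT1;1. ZAT6, a C2H2 zinc finger protein with a repression motif, restrains primary root growth and affects Pi uptake, and it also responds to cold, pathogens and metals. MYB62 is described as induced in leaves of Pi-starved plants and as a link between Pi starvation and gibberellin. WRKY proteins bind the W box, whose core is TTGAC.

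Levels are FPKM, counted reads scaled to coding length in kb and to library depth, and values of a group are mean ± SD over n = 3 libraries. A change is a log2 change of FPKM + 1 with its standard error (SE), and passing means an adjusted p below 0.05 in limma, with Benjamini-Hochberg adjustment over every gene tested in the comparison. Depth recovered from the values was 6680000 to 13180000 reads per leaf library and 2060000 to 11770000 per root library. The summed level of 7 root markers was 17.5 to 37.8 FPKM in leaf and 394 to 866 FPKM in root, and that of 7 leaf markers was 64460 to 120425 FPKM in leaf and 591 to 3741 FPKM in root, with no marker at 0 in every library of an organ. In the WT root libraries at 200 µM, genes with more than 4000 coding bases lay 1.23 below the median over root libraries in replicate 2 and 0.47 below it in replicate 3 (log2), while the other 16 root libraries lay between -0.21 and 0.38. Genes with fewer than 500 coding bases, among them WRKY75 with 438, lay 0.70 above the median over root libraries in that WT replicate 2. They lay 0.01 above it in WT replicate 3 at 200 µM, 0.40 below it in KO replicate 2 at 0 µM, and between -0.18 and 0.22 in the others. WT replicates 2 and 3 at 200 µM were left out in a further fit, and their part in the results was not tested otherwise.

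All 5 loci were in the table. In the TAIR10.1 annotation WRKY75 lies on the minus strand at chr5:4149738-4151201, WRKY6 on the minus strand at chr1:23016569-23019494, WRKY42 on the plus strand at chr4:2218042-2221260, ZAT6 on the minus strand at chr5:1216058-1217362 and MYB62 on the plus strand at chr1:25603676-25605181. The deposited table carries no coordinates. The coding lengths in the TAIR10.1 annotation are 438 bases for WRKY75, 1662 for WRKY6, 1587 for WRKY42, 717 for ZAT6 and 861 for MYB62. A mean of at least 1 FPKM over the 18 libraries of an organ was required for testing: WRKY6 and ZAT6 met it in leaf, and WRKY75, WRKY6 and ZAT6 in root. WRKY42 and MYB62 met it in neither organ, and WRKY75 missed it in leaf.

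The 250 bases upstream of the annotated start of WRKY75, of ZAT6 and of WRKY45, a group IIc relative of WRKY75 that activates PHT1;1, are shown because these genes moved together in root. They were read from the TAIR10.1 genome of RefSeq and run 5′ to 3′ on the gene's strand. Capitals mark matches on either strand to the W box (TTGACC or TTGACT) and to P1BS (GNATATNC, which reads the same on both strands), and no marked match overlaps another.
WRKY75, chr5:4151202-4151451, minus strand: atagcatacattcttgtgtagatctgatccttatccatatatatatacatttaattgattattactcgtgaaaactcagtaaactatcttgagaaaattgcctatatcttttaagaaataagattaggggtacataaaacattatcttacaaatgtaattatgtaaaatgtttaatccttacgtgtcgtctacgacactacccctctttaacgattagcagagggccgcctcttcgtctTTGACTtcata
ZAT6, chr5:1217363-1217612, minus strand: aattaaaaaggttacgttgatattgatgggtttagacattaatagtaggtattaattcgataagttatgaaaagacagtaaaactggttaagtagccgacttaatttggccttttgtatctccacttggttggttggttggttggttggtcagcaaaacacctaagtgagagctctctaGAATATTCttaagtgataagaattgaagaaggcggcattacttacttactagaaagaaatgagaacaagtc
WRKY45, chr3:327413-327662, minus strand: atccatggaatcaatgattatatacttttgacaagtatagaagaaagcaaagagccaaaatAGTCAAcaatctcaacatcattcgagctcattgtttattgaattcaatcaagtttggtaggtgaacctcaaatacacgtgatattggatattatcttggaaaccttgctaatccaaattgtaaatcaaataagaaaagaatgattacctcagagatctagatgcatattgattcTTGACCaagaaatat
The WRKY75 window held 1 W box, which began 11 bases before the start, and no P1BS match. The ZAT6 window held 1 P1BS match, 71 bases before the start, and no W box. The WRKY45 window held 2 W boxes, 15 and 189 bases before the start, and no P1BS match. Among windows of the same length of 27442 genes, 28.4% held a W box of these letters and 5.46% a P1BS match. The windows of WRKY6, WRKY42 and MYB62 held neither of these matches. The core TTGAC followed by A or G was not counted or marked. On either strand it occurs in the windows of WRKY6, WRKY42, MYB62 and WRKY45, and not in those of WRKY75 and ZAT6.

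**Figure D1:**
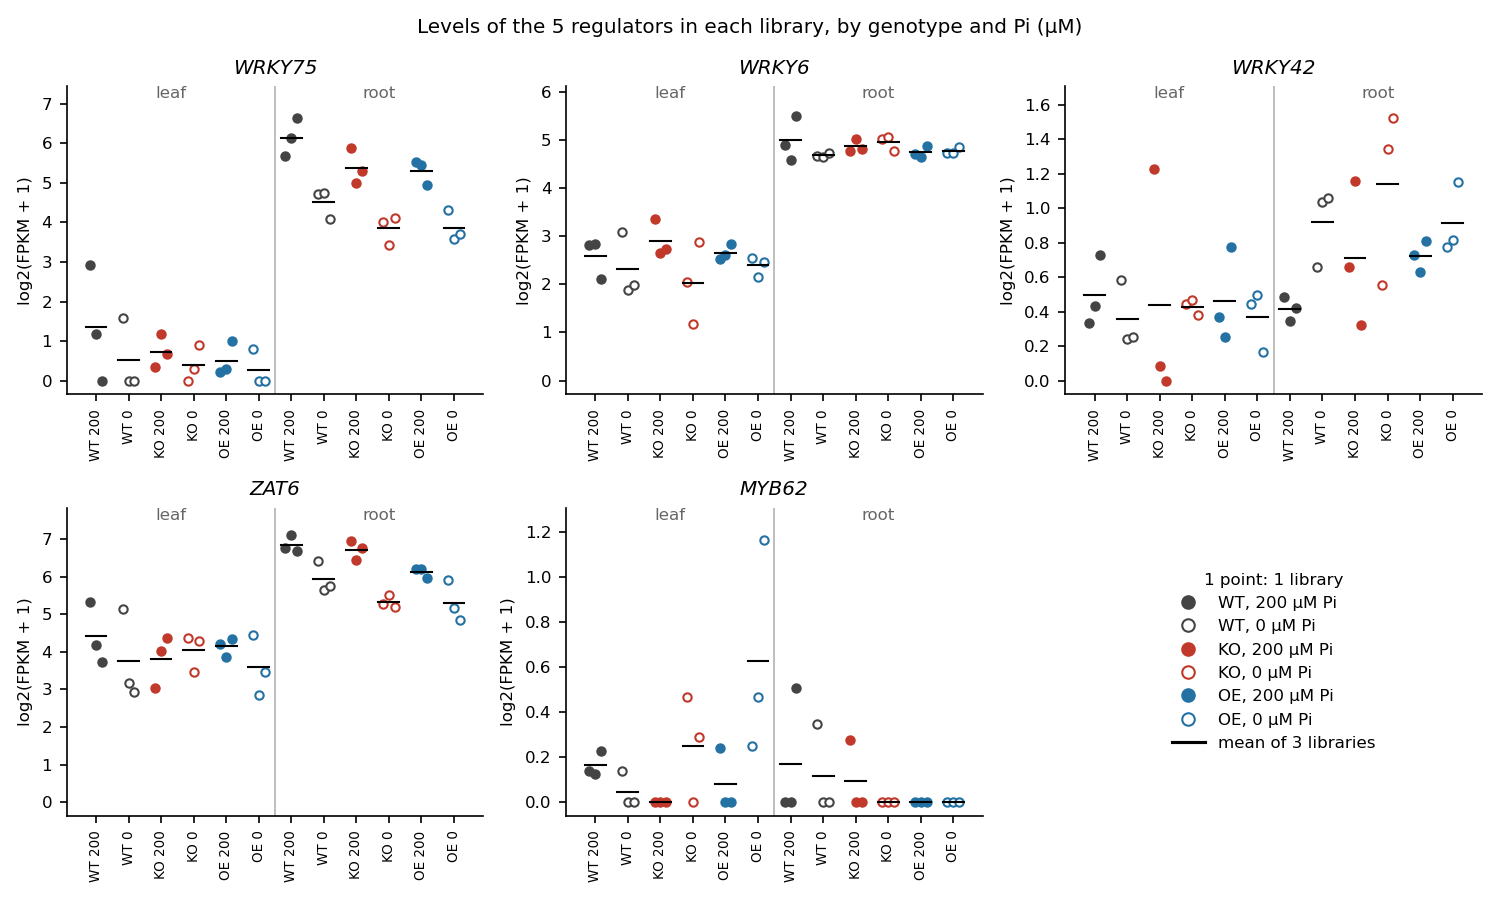
Each panel shows 1 gene, with log2(FPKM + 1) on the vertical axis and the 12 groups on the horizontal axis (Pi in µM), 1 point per library and a line at the mean of the 3 libraries on that scale. WRKY75, ZAT6 and WRKY6 lay higher in root than in leaf, WRKY75 and ZAT6 lay lower in root at 0 µM than at 200 µM, and WRKY42 and MYB62 stayed close to 0; the vertical scales differ between panels.

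WRKY75, WRKY6 and ZAT6 were higher in root than in leaf. WRKY75 averaged 34.0 FPKM over the 18 root libraries and 0.842 FPKM over the 18 leaf libraries. WRKY6 averaged 27.9 FPKM in root and 4.91 FPKM in leaf. ZAT6 was the most abundant of the 5, with 71.9 FPKM in root and 16.4 FPKM in leaf, above 90.2% of all genes in the table in root.

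Each of these 3 genes passed as higher in root than in leaf in all 6 settings of genotype and Pi, in a fit of all 36 libraries. WRKY75 met the filter of that fit only through its root level, so its pass is given as a description. WRKY75 was higher by 3.45 to 4.80 (log2), WRKY6 by 1.97 to 2.91 and ZAT6 by 1.28 to 2.91, with SEs of 0.48, 0.31 and 0.45. The size for WRKY75 depends on the pseudocount, since its leaf level was near 0: with 5 FPKM it was 1.79 to 3.40 and with 0.1 FPKM 5.41 to 6.39. Most genes differed between these organs: 69.7% of tested genes passed in WT at 200 µM, 73.4% in WT at 0 µM, 73.4% in KO at 200 µM, 71.8% in KO at 0 µM, 73.0% in OE at 200 µM and 74.0% in OE at 0 µM, so a pass says little about these genes in particular. The median gene was itself 0.67 to 0.81 higher in root on this scale, and under median-of-ratios scaling of all 36 libraries that median was 0.14 to 0.21. Relative to the median gene of the unscaled fit, WRKY75 was higher in root by 2.73 to 4.11, WRKY6 by 1.18 to 2.197 and ZAT6 by 0.57 to 2.12. With the scaling, ZAT6 no longer passed at 0 µM in KO, with a change of 0.66 and an adjusted p of 0.232, or in OE, with 1.01 and 0.0656 (limma). Without replicate 2 of KO leaf at 0 µM the unscaled KO change was 1.00 and its adjusted p was 0.0760.

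WRKY42 and MYB62 were close to the limit of detection. WRKY42 averaged 0.370 FPKM in leaf, from 109 reads over 18 libraries, and 0.795 FPKM in root, from 143 reads. MYB62 averaged 0.169 FPKM in leaf, from 28 reads of which 10 of 18 libraries held at least 1, and 0.050 FPKM in root, where 3 of 18 libraries held the 7 reads. A count of 0 allows up to 3 reads, which for MYB62 corresponds to 0.301 to 0.391 FPKM in the leaf libraries at 0 and to 0.296 to 1.69 FPKM in the root libraries at 0. Differences below these levels were not detectable at this depth, and these limits cover counting error only. In the fit without a filter, WRKY42 was higher in root than in leaf in KO at 0 µM (0.71, adjusted p = 0.0148, limma), from 33 against 18 reads. MYB62 was lower in root in OE at 0 µM (-0.63, adjusted p = 0.000913, limma), from 0 against 16 reads. Neither passed in another setting. In those comparisons 14975 and 15375 genes passed, out of the 27444 less the 3177 at 0 in every library. Most tested genes passed there, so a pass says little about WRKY42 or MYB62 in particular.

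Removal of Pi for 24 h was followed by lower WRKY75 in the roots of all 3 genotypes. In WT root the 3 libraries at 200 µM held 49.91, 69.26 and 98.17 FPKM of WRKY75 (72.4 ± 24.3) and the 3 at 0 µM held 25.36, 25.88 and 16.06 FPKM (22.4 ± 5.53). Every WT library at 0 µM lay below every WT library at 200 µM, an arrangement that 5.45% of tested genes showed. WRKY75 fell by 1.63 (log2, SE 0.29, adjusted p = 0.0108, limma), the 56th largest fall among the 19166 genes tested in root, of which 1.96% passed in either direction.

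In KO root WRKY75 was at 57.65, 30.91 and 38.27 FPKM with 200 µM Pi (42.3 ± 13.8) and at 15.21, 9.79 and 16.23 FPKM without Pi (13.7 ± 3.46). The KO groups were apart, as for 10.3% of tested genes in this direction, and WRKY75 fell by 1.54 (log2, SE 0.29, adjusted p = 0.00637, limma), with 3.53% of genes called in KO root. In OE root it was at 44.76, 42.76 and 29.85 FPKM with Pi (39.1 ± 8.09) and at 18.89, 10.95 and 12.11 FPKM without Pi (13.98 ± 4.29). The shallowest library, OE replicate 3 without Pi, held 11 reads of WRKY75. The OE groups were apart as well, as for 5.59% of tested genes, and WRKY75 fell by 1.44 (log2, SE 0.29, adjusted p = 0.0491, limma), where 0.235% of genes passed. On the FPKM scale the mean without Pi was 0.310 of that with Pi in WT, 0.325 in KO and 0.357 in OE. In bulk tissue, less RNA per cell and fewer cells that make the transcript cannot be told apart.

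The fall of WRKY75 in KO root kept its call in all 14 alternatives, with changes of -1.73 to -1.29 and adjusted p up to 0.0424 when 1 library was left out (limma), while the calls in WT and OE each depended on single libraries. In WT, without replicate 3 at 200 µM the WT change was -1.38 with an adjusted p of 0.0558, without replicate 3 at 0 µM it was -1.41 with an adjusted p of 0.0718, and without replicates 2 and 3 at 200 µM, chosen after the data were seen, it was -1.15 with an adjusted p of 0.495 (limma). The OE call was lost without any 1 of the 3 OE libraries at 200 µM or without replicate 2 or 3 at 0 µM, with changes of -1.29 to -1.62 and adjusted p up to 0.306 (limma), and it was also lost at an adjusted p of 0.0596 with the replicate number as a block. Averaged over the 3 genotypes, a comparison added after the data were seen, WRKY75 fell by 1.53 (log2, SE 0.17, adjusted p = 1.62e-05, limma), in a comparison in which 8.67% of genes passed. In each of 19 repeats without 1 library, or without those 2 WT libraries together, the average change of WRKY75 stayed between -1.61 and -1.37 with an adjusted p of at most 0.000233. The authors' deposited table gives ratios of 0.31, 0.32 and 0.36 for WRKY75 in WT, KO and OE root, with adjusted p-values of 0.000103, 0.000129 and 0.000733.

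ZAT6 was also lower in root without Pi. In WT root it was at 106.97, 137.84 and 101.16 FPKM with Pi (115 ± 19.7) and at 85.12, 48.98 and 52.88 FPKM without Pi (62.3 ± 19.8). The 2 WT groups did not overlap, an arrangement that 5.45% of tested genes showed. The ZAT6 change of -0.91 (log2, SE 0.25) had an adjusted p of 0.0605 (limma) and did not pass. It passed at an adjusted p of 0.0428 (-1.06) with median-of-ratios scaling, of 0.0426 (-0.95) without replicate 1 at 200 µM and of 0.0297 (-1.15) without replicate 1 at 0 µM. In KO root ZAT6 was at 122.1, 86.03 and 107.93 FPKM with Pi (105 ± 18.2) and at 37.68, 44.87 and 35.5 FPKM without Pi (39.4 ± 4.90). These groups were apart, as for 10.3% of tested genes, and ZAT6 fell by 1.39 (log2, SE 0.25, adjusted p = 0.00352, limma).

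In OE root ZAT6 was at 72.37, 72.56 and 61.11 FPKM with Pi (68.7 ± 6.56) and at 58.75, 34.94 and 27.58 FPKM without Pi (40.4 ± 16.3). The groups were apart, as for 5.59% of tested genes, with replicate 1 without Pi close to the lowest library with Pi, but the change of -0.82 (log2, SE 0.25) had an adjusted p of 0.397 (limma) and did not pass. Averaged over the 3 genotypes ZAT6 fell by 1.04 (log2, SE 0.14, adjusted p = 0.000144, limma), and its adjusted p stayed at or below 0.00136 in the same 19 repeats. The authors' deposited table gives ratios of 0.54, 0.37 and 0.59 for ZAT6 in WT, KO and OE root with adjusted p-values of 0.0611, 5.05e-10 and 0.0681.

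WRKY6 did not pass in any Pi comparison in root. Its WT libraries held 28.77, 22.96 and 44.4 FPKM with Pi and 24.46, 24.04 and 25.5 FPKM without Pi. The KO libraries held 26.5, 31.68 and 27.21 FPKM with Pi and 31.62, 32.26 and 26.12 FPKM without Pi, and the OE libraries 25.24, 24.1 and 28.41 FPKM with Pi and 25.57, 25.67 and 27.86 FPKM without Pi. The groups with and without Pi overlapped in each genotype, and the 18 root libraries spanned 22.96 to 44.4 FPKM. The changes were -0.31 in WT, 0.07 in KO and 0.03 in OE (log2, SE 0.19 each), and the average over genotypes was -0.07 with a 95% interval from -0.30 to 0.16 (adjusted p = 0.708, limma).

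WRKY42 in root was at 0.4, 0.27 and 0.34 FPKM in WT with Pi and at 0.58, 1.05 and 1.08 FPKM without Pi, that is 16 against 27 reads. The WT groups were apart, an arrangement with the higher values at 0 µM that 13.5% of tested genes showed, and in the fit without a filter on low values the change was 0.50 (SE 0.24) with an adjusted p of 0.287 (limma). In KO the values were 0.58, 1.23 and 0.25 FPKM with Pi and 0.47, 1.54 and 1.87 FPKM without Pi, and in OE 0.66, 0.55 and 0.75 FPKM with Pi and 0.71, 0.76 and 1.22 FPKM without Pi. Both of these pairs of groups overlapped. MYB62 had 7 reads in all root libraries together, 4 of them in replicate 3 of WT with Pi, and supports no comparison there.

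The Pi response in root was not shown to differ between genotypes for any of these genes. The response of KO less that of WT was 0.09 for WRKY75 (SE 0.41), -0.48 for ZAT6 (SE 0.35) and 0.38 for WRKY6 (SE 0.27), and that of OE less that of WT was 0.19, 0.09 and 0.34 with the same SEs. None of these 6 differences passed in limma and 0 had an unadjusted p under 0.05. Over all genes the share called was 0% for KO and 0% for OE, with 2245 and 923 genes at an unadjusted p under 0.05, and without WT replicate 1 at 200 µM 158 and 4 genes passed. The pass of ZAT6 in KO beside the misses in WT and OE is therefore no shown difference between them.

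**Figure D2:**
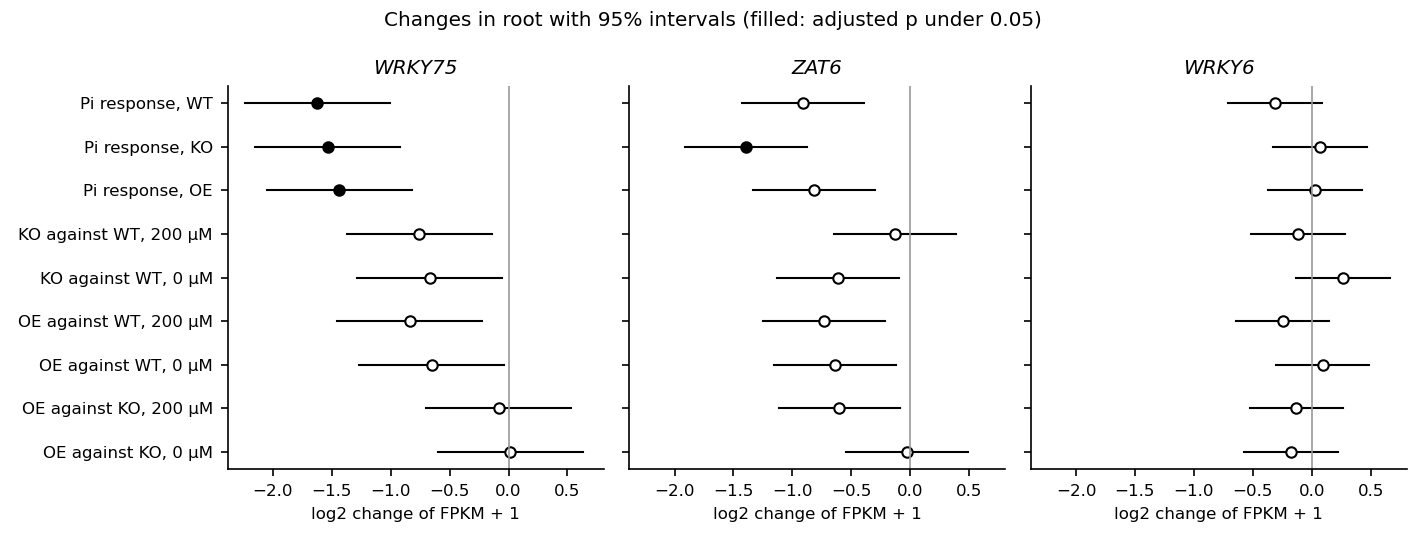
Log2 changes of WRKY75, ZAT6 and WRKY6 in root (horizontal axis) for the Pi response of each genotype and for the comparisons between genotypes, with 95% intervals; filled points had an adjusted p under 0.05. The 3 Pi responses of WRKY75 and that of ZAT6 in KO are filled, and the points for both lines against WT lie below 0 for WRKY75 and ZAT6 without being filled.

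Between genotypes in root, WRKY75 and ZAT6 lay lower in the 2 PPSR1 lines than in WT, and neither passed. At 200 µM the WT mean of WRKY75 was 72.4 FPKM against 42.3 in KO and 39.1 in OE. The OE libraries all lay below the WT libraries there, as for 3.95% of tested genes, and the KO libraries overlapped them. At 200 µM the WRKY75 change was -0.76 in KO and -0.84 in OE, and at 0 µM it was -0.67 and -0.65 (SE 0.29 each), with adjusted p-values of 0.303, 0.285, 0.373 and 0.682 (limma). ZAT6 was at -0.13 in KO and -0.73 in OE at 200 µM and at -0.61 and -0.64 at 0 µM (SE 0.25 each), with adjusted p-values of 0.857, 0.284, 0.334 and 0.577. The ZAT6 libraries of OE at 200 µM and of KO at 0 µM all lay below those of WT, as for 3.95% and 12.1% of tested genes. Those of KO at 200 µM and OE at 0 µM overlapped WT. WRKY6 changes lay between -0.25 and 0.27. At 0 µM its KO and its OE libraries all lay above those of WT, as for 6.58% and 8.50% of tested genes, and at 200 µM they overlapped.

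Of these 12 results against WT, 0 passed in limma and 7 had an unadjusted p under 0.05. The share of genes that passed at 200 µM was 0.0313% for KO and 0.0417% for OE, and at 0 µM it was 0.0522% and 0.0678%, while in the same order 13.1%, 12.3%, 12.2% and 7.13% had an unadjusted p under 0.05. KO and OE were compared with the same WT libraries, so their shared direction is not independent. Without WT replicates 2 and 3 at 200 µM the WRKY75 changes at that level were -0.28 for KO and -0.36 for OE. Averaged over both Pi levels, the change of WRKY75 was -0.71 in KO (SE 0.21, adjusted p = 0.185) and -0.75 in OE, where the adjusted p was 0.128. The averaged change of ZAT6 was -0.37 in KO (SE 0.17, adjusted p = 0.374) and -0.68 in OE, where the adjusted p was 0.0962, all from limma, with 0.073% of genes called for KO and 0.282% for OE. ZAT6 in OE passed in 1 of 13 repeats, without OE replicate 1 at 0 µM (-0.83, adjusted p = 0.0220).

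For WRKY75 the change of OE against KO was -0.08 with a 95% interval from -0.70 to 0.53 at 200 µM and 0.02 with an interval from -0.60 to 0.63 at 0 µM. ZAT6 was at -0.60 in OE against KO at 200 µM (adjusted p = 0.415, limma), where the 2 groups were apart, as for 6.18% of tested genes, and at -0.03 at 0 µM. None of the 6 results passed in limma, 1 had an unadjusted p under 0.05, and 0.00522% of all genes passed at each Pi level, while 10.6% at 200 µM and 8.48% at 0 µM had an unadjusted p under 0.05.

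In leaf WRKY6 and ZAT6 were tested and neither passed in any of 11 comparisons. ZAT6 in WT leaf was at 39.47, 17.05 and 12.33 FPKM with Pi and at 34.15, 8.08 and 6.57 FPKM without Pi. Replicate 1 was the highest at both Pi levels, and the 2 groups overlapped. In KO leaf ZAT6 was at 7.21, 15.26 and 19.67 FPKM with Pi and at 19.77, 10.1 and 18.48 FPKM without Pi, and in OE leaf at 17.57, 13.58 and 19.43 FPKM with Pi and at 21.03, 6.2 and 9.99 FPKM without Pi. The Pi changes of ZAT6 were -0.67 in WT, 0.23 in KO and -0.56 in OE (log2, SE 0.55 each, against 0.25 in root). Single libraries moved them by a large part: WT ranged from -1.36 without replicate 1 at 0 µM to -0.21 without replicate 1 at 200 µM, KO from -0.15 without replicate 1 at 200 µM to 0.52 without replicate 2 at 0 µM, and OE from -0.99 without replicate 1 at 0 µM to -0.18 without replicate 2 at 0 µM. Genes over 4000 coding bases lay low in 3 leaf libraries, at -1.25 in WT replicate 2 at 200 µM, -0.88 in WT replicate 1 at 0 µM and -1.04 in OE replicate 1 at 0 µM, and without these 3 the ZAT6 change was -1.49 in WT and -0.99 in OE, with adjusted p-values of 0.260 and 0.290 (limma).

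WRKY6 in WT leaf was at 6.05, 6.17 and 3.34 FPKM with Pi and at 7.52, 2.7 and 2.96 FPKM without Pi. In KO leaf it was at 9.19, 5.27 and 5.64 FPKM with Pi and at 3.16, 1.25 and 6.34 FPKM without Pi, and in OE leaf at 4.75, 5.07 and 6.19 FPKM with Pi and at 4.85, 3.46 and 4.54 FPKM without Pi. The groups overlapped in each genotype. The largest of these changes was -0.88 in KO (SE 0.39, unadjusted p = 0.0406, adjusted p = 0.317, limma), and 1 of the 6 Pi results in leaf had an unadjusted p under 0.05, as did 14.6% of all genes in KO leaf, 6.22% in WT leaf and 8.45% in OE leaf. The share of all genes that passed was 0.00606% in WT leaf, 1.10% in KO leaf and 0.801% in OE leaf. Averaged over genotypes WRKY6 was at -0.47 (SE 0.23, adjusted p = 0.336) and ZAT6 at -0.33 (SE 0.32, adjusted p = 0.622), where 2.04% of genes passed.

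Against WT in leaf 0.873% of genes passed in KO and 0.382% in OE at 200 µM, and 0.0364% and 0.0303% at 0 µM. Averaged over both Pi levels the shares were 0.0546% and 0.0364%. For OE against KO in leaf 0.00606% passed at 200 µM and 0.00606% at 0 µM, and for the difference of the Pi response from WT 0.127% in KO and 0.352% in OE. In these comparisons of single Pi levels WRKY6 and ZAT6 changed by -0.61 to 0.36, none passed in limma and 0 of 12 had an unadjusted p under 0.05.

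WRKY75 in leaf was above 0 in 12 of 18 libraries and rested on 78 reads in all, 35 of them in replicate 1 of WT with Pi. That library held 6.54 FPKM of WRKY75, and WT replicate 1 without Pi, with 2.00 FPKM, was the next highest. The other 16 leaf libraries lay between 0 and 1.26 FPKM. The same WT library with Pi held 75.7 FPKM of WRKY45, against 3.20 and 1.01 FPKM in the 2 others of its group, and 50.1 FPKM of ZAT10, a relative of ZAT6 induced by many stresses, against 14.2 and 4.16 FPKM. These genes were looked up after the WRKY75 values were seen, and what sets this library apart was not tested.

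MYB62 in leaf was at 0.1, 0.09 and 0.17 FPKM in WT with Pi and at 0.1, 0 and 0 FPKM without Pi. In KO leaf it was at 0 in all 3 libraries with Pi and at 0.38, 0 and 0.22 FPKM without Pi. In OE leaf it was at 0.18, 0 and 0 FPKM with Pi and at 0.19, 0.38 and 1.24 FPKM without Pi. Of the 28 leaf reads 16 were in OE without Pi, and 11 of those in replicate 3. In the fit without a filter the change in OE leaf was 0.55 (SE 0.17, unadjusted p = 0.00657) with an adjusted p of 0.312 (limma), which did not pass. WRKY42 in leaf lay between 0 and 1.34 FPKM, and its highest value, in KO replicate 1 with Pi, came from 19 reads.

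The Pi response was not shown to differ between the organs either. The response in root less that in leaf was -0.79 for WRKY75 in WT, -1.21 in KO and -1.20 in OE (SE 0.68 each), and -0.24, -1.62 and -0.26 for ZAT6 (SE 0.64 each). The WRKY75 values rest on few leaf reads and move with the pseudocount: with 0.1 FPKM they were 0.14 in WT, where the sign turned, -0.47 in KO and -0.32 in OE. In WT, leaving out 1 library gave -1.57 to -0.11 for WRKY75, the ends being those without leaf replicate 1 and without leaf replicate 3 at 200 µM. None of the 9 differences over WRKY75, ZAT6 and WRKY6 passed in limma, 2 had an unadjusted p under 0.05, and the lowest adjusted p was 0.255 for ZAT6 in KO. Over all genes 8.57% in WT, 12.8% in KO and 6.42% in OE had an unadjusted p under 0.05. The share of genes called was 0.0776% in WT, 1.24% in KO and 0.238% in OE.

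The order of the root group means was the same for WRKY75 and ZAT6. For both genes it ran, from high to low, from WT with Pi over KO with Pi, OE with Pi, WT without Pi and OE without Pi to KO without Pi. Among neighbours in this order the libraries overlapped except between OE with Pi and WT without Pi for WRKY75, between KO with Pi and OE with Pi for ZAT6, and between KO root without Pi and the highest leaf group for WRKY75. For WRKY6 only the step from root to leaf separated neighbours. Of tested genes, 6.18% had every OE root library with Pi below every KO root library with Pi. How many genes showed the other steps, or the whole order, was not counted. The last root step was small, from 13.98 to 13.7 FPKM for WRKY75 and from 40.4 to 39.4 FPKM for ZAT6. WRKY6 group means ran from 24.7 to 32.04 FPKM in root and from 3.58 to 6.70 FPKM in leaf.

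The genes whose levels followed WRKY75 most closely over the 18 root libraries were WRKY45 (Pearson r 0.948, Spearman rho 0.934), bZIP1 (r 0.938), which codes for a bZIP factor active when sugar and energy are low, and FLS5 (r 0.936), of the flavonol synthase family. For ZAT6 they were AGT (r 0.967), a photorespiratory aminotransferase gene, KTI1 (r 0.960), a trypsin inhibitor gene, and bZIP1 (r 0.956). For WRKY6 they were UBC30 (r 0.935), NF-YC11 (r 0.820) and AtRZ-1b (r 0.817). These coefficients describe libraries that share Pi level and genotype, and a gene that differs between the Pi levels correlates with any other that does. In leaf the closest genes to ZAT6 were AT5G19230 (r 0.886), ARI15 (r 0.873) and AT1G23130 (r 0.868), and to WRKY6 AT1G64490 (r 0.853), AT3G45730 (r 0.841) and PIRL1 (r 0.835).

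**Figure D3:**
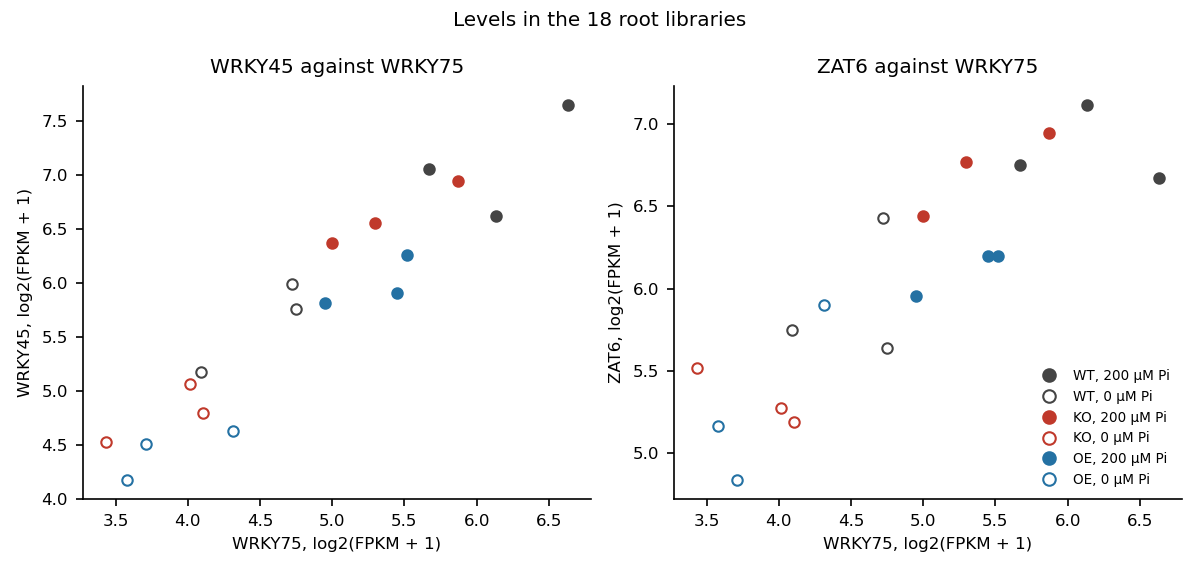
Levels of WRKY45 (left) and ZAT6 (right) on the vertical axes against WRKY75 on the horizontal axis in the 18 root libraries, all as log2(FPKM + 1), with colour for genotype and open points for 0 µM Pi. Libraries with 200 µM Pi lie towards the upper right and those with 0 µM towards the lower left, and the highest WRKY75 point is WT replicate 3 with Pi at 98.17 FPKM.

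Relatives of these genes gave few calls in root, where 1.96% of all tested genes passed in WT, 3.53% in KO and 0.235% in OE. Of 6 WRKY group IIc relatives of WRKY75, 5 were tested and 1, WRKY45, fell in each genotype. WRKY45 was at 132.15, 97.03 and 199.58 FPKM in WT root with Pi and at 62.41, 53.15 and 35.16 FPKM without Pi. These WT groups were apart, as for 5.45% of tested genes. WRKY45 fell by 1.47 in WT, 1.82 in KO and 1.56 in OE, with an SE of 0.26 and adjusted p-values of 0.0103, 0.000587 and 0.0114 (limma). The median change of the 5 was 0.16 in WT, 0.54 in KO and 0.22 in OE, beside 0.13, 0.09 and 0.04 over all genes. WRKY24, another of them, was at 0.69, 0.58 and 0.45 in the 3 genotypes without a pass in any, and its average of 0.57 over genotypes passed (adjusted p = 0.0430, limma). That average was added after the data were seen, 8.67% of genes passed in it, and WRKY24 was named after its values were seen. WRKY45 was also lower in OE root than in WT averaged over both Pi levels, by 1.16 (SE 0.18, adjusted p = 0.00764, limma), where 0.282% of genes passed.

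None of the 6 group IIb relatives of WRKY6 and WRKY42 passed in root in limma, with median changes of -0.16 in WT, -0.19 in KO and -0.01 in OE. WRKY36, WRKY72 and WRKY9 of that group were at 21.83 to 85.19 FPKM in every root library, far above WRKY42. Of 10 C2H2 relatives of ZAT6, 8 were tested, and AZF2, a repressor induced by abscisic acid, fell in WT by 1.00 (SE 0.23, adjusted p = 0.0360, limma), while none passed in KO or OE. Of 5 MYB relatives of MYB62, 4 were tested, and MYB2, linked to drought and senescence, fell in KO by 1.64 (SE 0.33, adjusted p = 0.00894, limma) and none passed in WT or OE. Over all 19166 genes tested in root, 163 fell in WT, 433 in KO and 24 in OE. MYB116, a close relative of MYB62, was at 0 in all 36 libraries.

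Some of the Pi starvation genes that these factors act on or with passed in the same roots, and others did not. All 16 of that list were tested: 5 rose and 0 fell in WT, 7 rose and 1 fell in KO, and 4 rose and 0 fell in OE, with list medians of 0.61, 0.32 and 0.56 (log2). Over all 19166 tested genes, 213 rose and 163 fell in WT, 243 rose and 433 fell in KO, and 21 rose and 24 fell in OE. SPX1, a Pi sensor gene, rose by 2.75 in WT (SE 0.28, adjusted p = 0.00011), 3.15 in KO and 2.91 in OE. IPS1, a noncoding RNA that sequesters a microRNA of Pi starvation, was at 0, 0.35 and 0.37 FPKM in WT root with Pi and at 21.21, 49.7 and 45.19 FPKM without Pi, and rose by 4.93 in WT (adjusted p = 0.000835, limma), a size that depends on the pseudocount since the level with Pi was near 0. The mean of IPS1 in WT root with Pi, 0.24 FPKM, lay below the 1 FPKM asked of the organ mean, so this pass is given as a description. In KO the call with the smallest adjusted p beside SPX1 was PHT1;4, a Pi transporter gene, which rose by 1.85. The other risers in WT were PHT1;4, AT4 and PHT1;1, named after their values were seen, and reads of PHT1;1 may be shared with near-identical PHT1 copies. The gene that fell in KO was PHO2, which codes for an enzyme that marks Pi transporters for breakdown, by 1.29 (SE 0.21, adjusted p = 0.00175).

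PHO1, the target repressed by WRKY6 and WRKY42, did not pass in root. It was at 269.44, 177.08 and 191.93 FPKM in WT with Pi and at 261.14, 265.4 and 253.74 FPKM without Pi, and its changes were 0.31 in WT, -0.48 in KO and 0.15 in OE (SE 0.19 each). PHT1;1, the target activated by WRKY42 and WRKY45, was at 693.88, 533.71 and 335.23 FPKM in WT root with Pi and at 1201.56, 1007.18 and 1130.64 FPKM without Pi. It rose by 1.15 in WT (SE 0.24, adjusted p = 0.0202, limma), while its changes of 0.31 in KO and 0.76 in OE did not pass.

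Of 13 senescence and defence genes linked to WRKY75, WRKY6 and ZAT6, 9 were tested in root: 0 rose and 2 fell in WT, 3 fell in KO and 1 fell in OE. Among all 19166 genes tested there, 163 fell in WT, 433 in KO and 24 in OE. RAV1, a positive regulator of leaf senescence, fell by 1.20 in WT (SE 0.15, adjusted p = 0.00111) and by 1.56 in KO, and NAP, a NAC factor of senescence, fell by 1.65 in WT, 2.2 in KO and 1.85 in OE (SE 0.37, adjusted p = 0.0288, 0.00215 and 0.0398, limma). NAC092, another senescence factor, was the other that fell in KO, by 1.42. The salicylic acid synthesis gene ICS1 and the glutathione synthesis gene GSH1, described as targets of WRKY75 and ZAT6, did not pass in any genotype, with changes of 0.24 to 0.46 and -0.07 to 0.17.

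None of 12 tested gibberellin genes out of 14 passed in any genotype in root in limma. Of 14 touch and rapid stress genes, all tested, 0 rose and 1 fell in WT, 1 rose and 3 fell in KO and 0 passed in OE. Among all 19166 genes tested in root, 163 fell in WT, and 243 rose and 433 fell in KO. The gene that fell in WT was ERF104, a stress-induced ethylene response factor (-1.03, adjusted p = 0.0113), and in KO TCH4, a cell wall enzyme induced by touch, rose by 1.74 while ERF104, ERF6 and CZF1 fell. In leaf, 4 of 14 tested Pi starvation genes rose in KO, among them SPX1 by 3.41 (adjusted p = 0.000376) and AT4 by 4.56 (adjusted p = 0.00209), SPX1 and TCH4 rose in OE, and no gene of these 8 lists passed in WT leaf in limma. The other 2 risers in KO leaf were SPX2 and PS2, named after their values were seen. Of all 16489 genes tested in leaf, 159 rose in KO and 113 in OE.

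**Figure D4:**
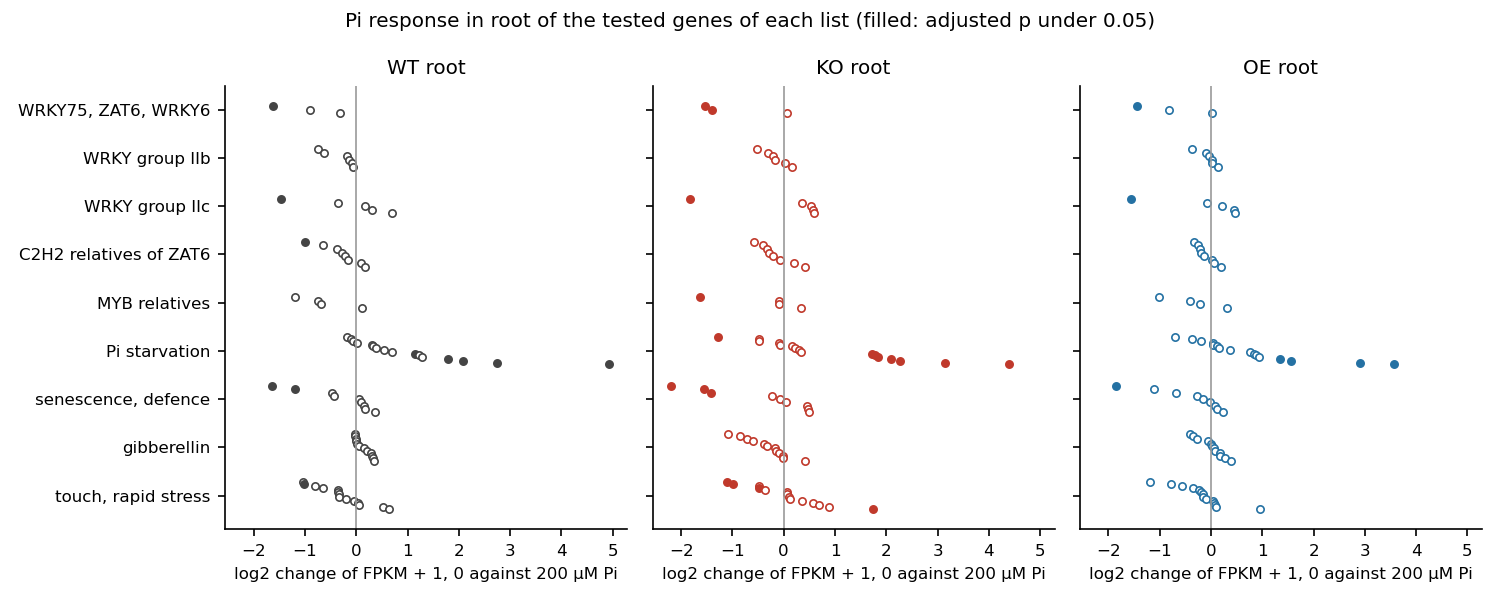
Log2 change in root at 0 µM against 200 µM Pi (horizontal axis) of each tested gene of the lists, in WT, KO and OE from left to right, with 1 point per gene and filled points for an adjusted p under 0.05. The filled points to the right are mainly Pi starvation genes, up to IPS1 at 4.93 in WT, and WRKY75, WRKY45, RAV1 and NAP are among those to the left in WT.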

How the data were processed

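Libraries were made by the submitters from poly(A)-selected RNA with strand marking, per the labels' protocols. Reads were handled with Trimmomatic, HISAT2 2.2.1, the TAIR10 build and DESeq2, per the submitters' processing notes; neither a counting tool nor its settings are named in the labels. The deposited values per library are FPKM, recognised from the values: times coding length in kb they sum to 974165 to 1016890 per library, and 98.9% to 100% of the low values are whole numbers of reads (tolerance 0.1 read), which gave the depth. The deposited ratio and adjusted p-value of each Pi response are the authors' own and entered no test.

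Values were put on the scale log2(FPKM + 1). A gene entered the fit if it averaged 1 FPKM or more across the 18 libraries of the organ, and the fit was limma 3.58.1 (with trend, R 4.3.3) on 6 group means, and root against leaf used all 36 libraries and 12 group means. P-values were adjusted by Benjamini-Hochberg within each of 31 comparisons over 16489 (leaf), 19166 (root) or 19327 (both) genes. On simulated data the fit was tested before use. Replicates are labelled as independent biological ones, and all libraries carry 1 batch label. No 2 libraries were identical and no column was left unmapped. The members, the lists, the comparisons and the alternatives were chosen with earlier results of these data known. Named genes were the 5 members, for each list and comparison at most 2 rising and 2 falling genes, taken by smallest adjusted p, and the 3 genes most correlated with each tested member in an organ; PHO1, PHT1;1, ICS1 and GSH1 were named as targets of the members, and WRKY24, WRKY36, WRKY72, WRKY9, MYB116, ZAT10, CZF1, NAC092 and the others that the text marks were named after their values were seen. Names came from a TAIR10.1 table, which held all 27444 loci. Promoter windows came from the RefSeq TAIR10.1 genome by locus, since the table has no coordinates; TAIR10.1 keeps the nuclear chromosomes of TAIR10. The 8 lists beside the members and the organ markers, the alternatives (pseudocounts of 0.1 and 5 FPKM, no filter or 5 FPKM, median-of-ratios scaling, no trend, groups fitted alone, replicate block, each library left out, 3 leaf libraries with low long genes left out, and the averages and the left-out WT root pair added after the data were seen) are given in the report and below. Numbers of replicates were taken to pair no samples: of 18 comparisons, 1 had all 3 correlations of same-numbered libraries above 0.1, and over all of them the correlations ran from -0.35 to 0.72.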

Additional observations from a re-analysis of the deposited data

How the results depend on the processing

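Of 82 tested results of the members, 22 passed. Of these, 18 were in root against leaf, where 69.7% to 74.0% of all tested genes passed. Among the 18, the 6 of WRKY75 are a description, since it met the filter of that fit only through its root level. The remaining 4 of the 22 were Pi responses in root, where 0.235% to 3.53% of genes passed. Of the 82 results, 77 kept their side of the threshold in every alternative run, and no called result changed sign. WRKY75 in WT root (-1.63) no longer passed with its 2 groups fitted alone (-1.63, adjusted p = 0.117) and without 2 WT libraries at 200 µM (-1.15, adjusted p = 0.495), and leaving out 1 library gave -1.86 to -1.38 (adjusted p up to 0.0718). ZAT6 in WT root came to pass with median-of-ratios scaling (-1.06, adjusted p = 0.0428) and ranged from -1.15 to -0.76 with 1 library left out. WRKY75 in OE root no longer passed with a pseudocount of 0.1 FPKM (-1.50, adjusted p = 0.0583) or 5 FPKM (-1.22, adjusted p = 0.0580), without a filter (-1.44, adjusted p = 0.0991), without trend (-1.44, adjusted p = 0.0835) or with its groups alone (-1.44, adjusted p = 0.0804), and ranged from -1.66 to -1.29 with 1 library left out (adjusted p up to 0.306). The replicate block left that change at -1.44 with an adjusted p of 0.0596, and the block changed no other call of a member. ZAT6 in root against leaf no longer passed with median-of-ratios scaling in KO (0.66, adjusted p = 0.232) and OE (1.01, adjusted p = 0.0656) at 0 µM, and without 1 library ranged from 1.00 to 1.45 in KO (adjusted p up to 0.0760) and from 1.34 to 2.15 in OE. The cause of these changes was not tested (all p-values from limma).

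Over all genes, the number that passed in the Pi response of WT root was 376, against 8 with the groups alone, and 30 to 1824 with 1 library left out, the lowest without replicate 3 at 0 µM and the highest without replicate 1 at 200 µM. Without replicate 1 of WT at 200 µM, KO and OE against WT at that level gave 923 and 362 genes in place of 6 and 8, and at 0 µM the alternatives gave 5 to 29 (10) for KO and 5 to 13 (13) for OE. The Pi response of KO root had 676, with 305 to 760 in all alternatives, and for OE root 45, with 11 to 50. In leaf, KO against WT at 200 µM gave 8 to 166 genes (144 as reported), OE against WT 29 to 84 (63), and the differences in Pi response of KO and OE from WT 0 to 45 (21) and 9 to 91 (58), and the differences between organs 1 to 79 (15) in WT, 102 to 316 (240) in KO and 23 to 134 (46) in OE. The 1 gene of WT leaf became 17 without 3 libraries, and 0 without replicate 1 at 200 µM to 23 without replicate 1 at 0 µM. The 182 of KO leaf became 404 without those 3 libraries, 80 with groups alone and 55 without KO replicate 1 at 0 µM. The 132 of OE leaf became 405 without those 3 libraries, 78 without a filter and 27 without OE replicate 3 at 200 µM. Reads set what can be seen of WRKY42, MYB62 and, in leaf, WRKY75.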
